A study of Homo sapiens with 24 samples.

Results

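OVCAR8 cells that had been made resistant to neratinib and were on the drug again were compared with drug-naive OVCAR8 cells that had never been resistant. The comparison takes 6 of the 24 libraries of the series. They are 3 libraries of the neratinib-resistant line (NR) given 1 µM neratinib for 24 h, and 3 libraries of parental cells that received no drug. They were chosen by their labels for line, state and treatment, and the counts of the main comparison are given with and without the second parental control, which stands apart from its group. OVCAR8 is an established ovarian carcinoma line, and the labels give no genetic change made on purpose to either state. NR cells had spent 1 week without drug before seeding, so the drugged NR libraries describe a renewed exposure. The labels do not say whether NR is a clone or a pool, and 1 such line was studied. Parental cells on the same dose and NR cells without drug, 3 libraries each, serve as reference groups, and the other 12 libraries are of the bladder line 5637. Each group of 3 is dishes seeded in triplicate, so p-values measure the spread between these dishes, which may be technical.

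Neratinib binds irreversibly to the kinases of EGFR, ERBB2 and ERBB4 and so cuts the signal these receptors send through RAS and ERK and through PI3K and mTORC1. ERK drives immediate early genes and its own inhibitors, and mTORC1 feeds ribosome production, sterol synthesis through SREBP factors and amino acid genes through ATF4. Cells whose ERBB signal is blocked commonly leave the cell cycle, and resistant cells by definition grow in the presence of the drug. The comparison asks which of these programs stood at the drug-naive level in resistant cells on drug and which did not. Proteins and phosphorylation were not measured.

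Counts were tested with the quasi-likelihood test of edgeR, with 12 OVCAR8 libraries in the fit, and levels are CPM, read counts relative to the TMM-scaled library total. A gene was called higher or lower at a Benjamini-Hochberg adjusted p under 0.05. It was said to match the drug-naive level when the 90% interval of its fold change lay wholly within a factor of 1.5 either way, which corresponds to a log2 value of 0.58. A gene can do both, when a small difference was measured precisely, and a gene that did neither is called undecided.

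Of 18072 genes tested, 1175 were higher in NR cells on drug than in drug-naive parental cells, or 6.5%, and 1328 were lower, or 7.35%. Another way to read the same fit is that 9028 genes, or 50%, matched the drug-naive level, while 7096 were undecided. At least 2-fold differences were called for 252 higher and 352 lower genes. Without parental control 2, 18537 genes were tested, 2318 (12.5%) were higher, 2712 (14.6%) were lower and 11644 (62.8%) matched. Both fits shared 1148 higher and 1291 lower calls, and 0 genes were called in opposite directions. Counts of list members below are to be read beside the shares higher, lower and matching over all genes.

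Parental control 2 differs from its fellow controls in a way that follows gene length. Of its nuclear counts, 15.4% fell on genes longer than 8 kb, where the remaining 11 libraries of OVCAR8 had 22.2% to 23.1%. Genes shorter than 1 kb took 2.26% of them, compared with 1.27% to 1.42% elsewhere. Relative to controls 1 and 3, the median gene of 1 to 2 kb stood 0.43 higher on the log2 scale and the median gene longer than 15 kb stood 0.89 lower. Controls 1 and 3 differed from each other by no more than 0.04 in any length class. A chi-square of counts per degree of freedom was 182 and 163 between control 2 and the other controls, 6.78 between controls 1 and 3, and 2.5 to 7.05 among the drugged NR libraries. The biological coefficient of variation fell from 13% to 4.37% when control 2 was left out. The part of RNA quality in this was not tested. Library totals in OVCAR8 ran from 23.8 to 48.5 M counts.

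**Figure D1:**
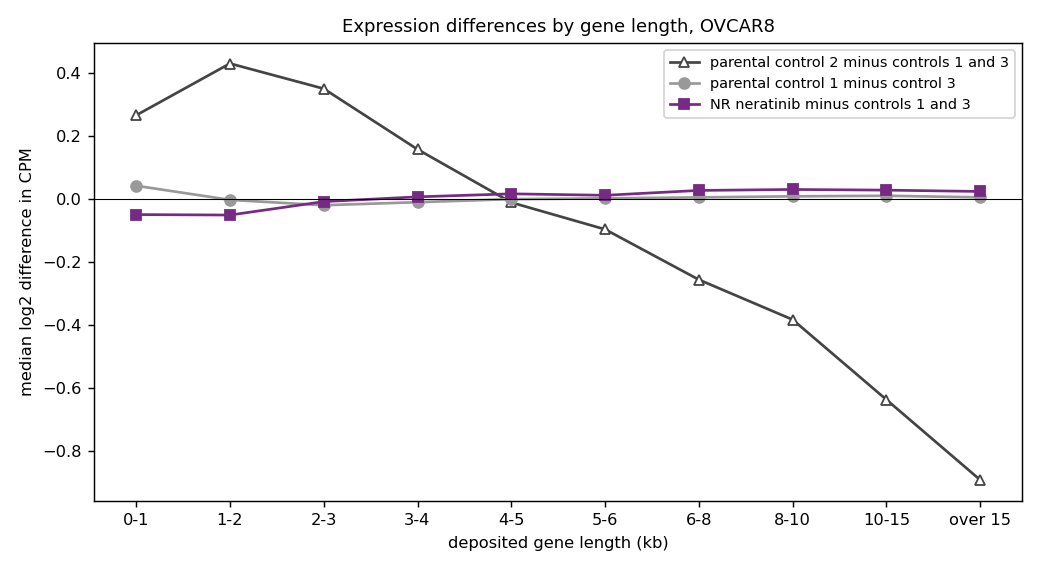
Median log2 difference in CPM (vertical axis) by deposited gene length in kb (horizontal axis), for parental control 2 against controls 1 and 3, control 1 against control 3, and NR neratinib against controls 1 and 3. The line of control 2 runs from 0.43 in genes of 1 to 2 kb to -0.89 in genes over 15 kb, and the other lines stay near 0.

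Mitotic genes stood at the drug-naive level for the most part. Of 30 mitotic genes tested, 25 matched, 1 was higher, 1 was lower and 3 were undecided, with a median log2 fold change of -0.02. Without parental control 2, all 30 matched, 3 of them with a call higher and 1 with a call lower, and the median was 0.02. The same dose in parental cells lowered 29 of the 30 (median -0.65), where 16.3% of all genes tested fell and 16.2% rose. These comparisons share the parental control libraries, so their values are set side by side and not related to each other. In NR cells the drug gave 0 calls among the 30 in either direction with edgeR and with DESeq2, and 1 member passed an unadjusted p under 0.05 (median 0.04). Of all genes, 0.642% were higher and 0.747% lower in that comparison, and leaving out parental control 2, which shares the estimate of spread, brought it to 2 higher and 2 lower of the 30. Over all genes that fit called far more in every comparison. For the drug in NR cells it called 9.39% higher and 11.9% lower, for NR cells off drug 11.4% each way, and for the drug in parental cells 24.3% higher and 24.9% lower. NR cells off drug were lower than parental controls in 1 of the 30 (median -0.03), where 4.94% of all genes were higher and 4.91% lower, and without control 2 they were higher in 3 and lower in 4.

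PLK1 (ENSG00000166851.10, hg19 chromosome 16, 23688977 to 23701688), the kinase that drives mitotic entry and spindle assembly, stood at 223, 238 and 215 CPM in the parental controls and at 225, 208 and 219 CPM in NR cells on drug. The groups overlapped, with a log2 fold change of -0.05 ± 0.07 (SE) and a 90% interval of -0.17 to 0.06. Drugged parental cells stood apart from both, at 146, 138 and 141 CPM. PRC1, which bundles the microtubules of the central spindle, stood at 259, 252 and 264 CPM in the controls and at 257, 258 and 257 CPM in drugged NR cells (90% interval -0.11 to 0.10). TPX2, the spindle assembly factor that activates Aurora A, had the highest mean CPM among matching members, at 685 ± 47 CPM in the controls and 708 ± 11.1 CPM on drug (SD, n = 3 each). KIF11, the kinesin that separates spindle poles, was the 1 mitotic gene called higher, at 134, 104 and 134 CPM in the controls and 171, 172 and 169 CPM on drug (log2 0.46 ± 0.09, edgeR adjusted p = 0.0069). Every drugged NR library lay above every control for KIF11, and without control 2 the value was 0.34, inside the factor of 1.5. NDC80, a kinetochore component, was the 1 called lower (log2 -0.40 ± 0.11, edgeR adjusted p = 0.035), and it also kept within the factor without control 2 at -0.25.

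Many mitotic promoters carry a cell cycle homology region, whose core letters TTTGAA are read by the DREAM complex that represses them in resting cells. PLK1 and PRC1 are shown because both matched the drug-naive level on drug and hold the core close to the start. Their upstream stretches from RefSeq, GRCh38.p14, run 5′ to 3′ in gene orientation with the core in capitals, for PLK1 on the plus strand at chr16:23678830-23678888 and for PRC1 on the minus strand at chr15:90994536-90994585.
PLK1: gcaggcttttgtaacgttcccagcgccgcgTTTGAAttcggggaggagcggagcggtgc
PRC1: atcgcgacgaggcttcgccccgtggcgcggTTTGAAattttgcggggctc
Searched on both strands of the 250 bases before the start, TTTGAA occurred in 12 of the 24 mitotic promoters matched by symbol, or 50%, and in 13.3% of 35116 promoters of the same length. KIF11, which was called higher, also held the letters, on the opposite strand and 28 bases before the start. A match of 6 letters is a description and was not tied to binding in these cells.

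DNA replication genes matched about as often, with a small shift downward. Of 39 tested, 34 matched, 7 were called lower and 3 were undecided (median log2 -0.19). Called higher were 0 members with edgeR and with DESeq2, and 1 at an unadjusted p under 0.05. Without control 2 all 39 matched, and 15 of them were called lower and 1 higher within that margin (median -0.12). Drugged parental cells were lower in 36 of 39 (median -0.70), and the drug in NR cells gave a median of -0.03. There edgeR called 0 of 39 in either direction, DESeq2 called 1 lower, and 1 higher and 4 lower passed an unadjusted p under 0.05. Without control 2 in the fit those edgeR counts were 2 higher and 6 lower. CDC6, which loads the replicative helicase onto origins, stood at 124, 124 and 119.7 CPM in the controls and at 93.2, 90 and 94.5 CPM in NR cells on drug (log2 -0.40 ± 0.07, edgeR adjusted p = 0.0018). The CDC6 groups did not overlap, and parental cells on drug stood far lower, at 57.1, 59.5 and 56.4 CPM. POLD1, the catalytic subunit of DNA polymerase delta, was at 132 ± 15.4 CPM in the controls and 90.6 ± 7.7 CPM on drug (SD, n = 3; log2 -0.54 ± 0.10). For POLD1 the drugged NR libraries overlapped those of drugged parental cells, at 94.3, 99.8 and 90.5 CPM. FEN1, the flap endonuclease, fell short of the controls by a value that rests partly on control 2. It stood at 168, 271 and 177 CPM in the controls and 154, 136 and 144 CPM on drug, and its log2 fold change of -0.51 became -0.27 without that library. MCM4, a subunit of the replicative helicase, stood at 509.9 ± 51.4 CPM in the controls and 577 ± 13.7 CPM on drug (SD, n = 3), with a 90% interval of 0.04 to 0.31.

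Of 14 regulators of G1, 10 matched and 1 was called lower (median -0.11). Without control 2, all 14 lay within the factor, with 3 called higher and 5 lower. The all-gene shares were 6.5% higher, 7.35% lower and 50% matching, or 12.5%, 14.6% and 62.8% without control 2. CCND1, cyclin D1, stood at 452, 302 and 401 CPM in the controls, 238, 233 and 221 CPM in parental cells on drug and 469, 459 and 475 CPM in NR cells on drug. Its interval against the controls ran from 0.07 to 0.49. CDKN2D, an inhibitor of CDK4 and CDK6, was the lower gene (log2 -0.65 ± 0.16), and it moved to -0.40 without control 2. CDK6, a kinase that cyclin D activates, stood at 132, 60.5 and 108 CPM in the 3 controls, with control 2 the lowest, against 97.4, 101 and 93.6 CPM on drug. Its log2 fold change was -0.04 with the library and -0.31 without it (edgeR adjusted p = 0.00034).

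**Figure D2:**
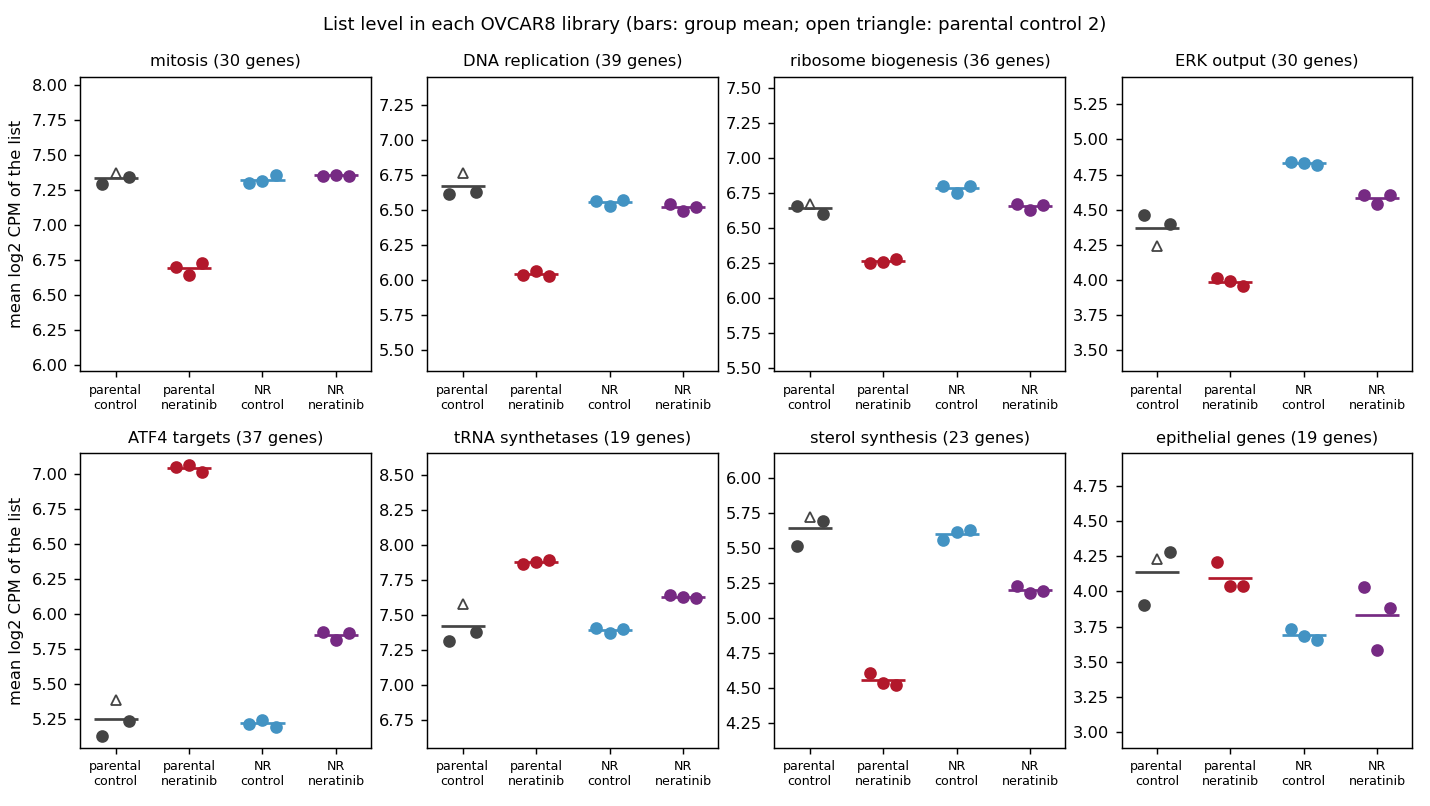
Mean log2 CPM of the tested members of 8 gene lists (vertical axes, all of the same span) in each of the 12 OVCAR8 libraries, by group on the horizontal axis, with bars at group means and an open triangle for parental control 2. Mitosis and ribosome biogenesis genes in NR cells on drug lie at the drug-naive level, ATF4 targets lie above it and sterol synthesis genes below it.

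Most ribosome biogenesis genes, which mTORC1 and MYC feed, matched. Of 36 tested, 29 matched, 5 were higher, 1 was lower and 4 were undecided (median -0.04). Without control 2, 35 of 36 matched, with 7 called higher and 6 lower. In parental cells the drug lowered 26 of 36 (median -0.37). Off drug, NR cells were higher than the controls in 7 of 36 (median 0.06), and in 15 without control 2 (median 0.13). For the drug in NR cells, edgeR called 0 of 36 in the full fit, where DESeq2 called 4 lower and 7 were lower at an unadjusted p under 0.05. It called 15 lower without control 2 in the fit (median -0.10). BRIX1, an assembly factor of the large subunit, was higher, at 55, 81.9 and 60.4 CPM in the controls and 91.5, 92.2 and 91.4 CPM on drug (log2 0.48 ± 0.12, edgeR adjusted p = 0.021). Without control 2, which had the highest control value, the difference was 0.66 and left the factor of 1.5. DDX21, a nucleolar helicase, was called higher too (log2 0.53 ± 0.16), but control 2 was its lowest library at 186 CPM and the value fell to 0.30 without it. NCL, nucleolin, stood at 1433 ± 116 CPM in the controls and 1367 ± 12.3 CPM on drug (SD, n = 3), with a 90% interval of -0.20 to 0.07.

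Cytosolic ribosomal protein genes changed their median sign with parental control 2. Of 38 tested, 18 matched and 20 were undecided (median -0.25). The edgeR test called 0 of them, DESeq2 called 1 higher, and 1 higher and 5 lower passed an unadjusted p under 0.05. Without control 2, 37 matched, 19 were called higher and 2 lower, and the median was 0.11. The list stood 0.96 higher in control 2 than in the other controls on the log2 scale. RPS3 of the small subunit stood at 1973, 3830.4 and 2130.4 CPM in the controls and 2274, 2216 and 2242 CPM on drug, so that of the controls control 2 alone lay above the drugged NR libraries. RPS3 went from -0.24 to 0.12 without that library. Genes of oxidative phosphorylation moved toward 0 without changing sign. In the full fit, 11 of 28 matched and 2 were lower, with a median of -0.34. Without control 2, 28 of 28 matched, 4 of them called lower, with a median of -0.02. The 13 mitochondrially encoded mRNAs matched in 11 cases, and in 13 without control 2, with 1 called higher and 2 lower. MT-CO1, a subunit of cytochrome c oxidase, stood at 17694 ± 1088 CPM in the controls and 17103 ± 1122 CPM on drug (SD, n = 3).

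Genes of ERK output, which include the feedback inhibitors that ERK induces, were called higher than drug-naive more often than lower. Of 30 tested, 15 matched, 11 were higher, 2 were lower and 4 were undecided, with a median log2 of 0.28. Without control 2, 14 were higher, 2 lower and 21 matched, and the median was 0.18. Of all genes, 6.5% were higher, 7.35% lower and 50% matched, or 12.5%, 14.6% and 62.8% without control 2. The drug lowered 14 of the 30 ERK output genes in parental cells (median -0.34) and 5 in NR cells (median -0.22). Without control 2 in the fit, those counts were 17 and 16. NR cells off drug were higher than parental controls in 18 of 30 (median 0.46).

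PHLDA1 (ENSG00000139289.9, hg19 chromosome 12, 76419227 to 76427712), a small pleckstrin-homology protein, stood at 36.2, 34.9 and 33.7 CPM in the parental controls and at 60.8, 61 and 63.9 CPM in NR cells on drug. All drugged NR libraries lay above all controls (log2 0.82 ± 0.07, edgeR adjusted p = 8.2e-06), yet below the 86.6, 79.9 and 81.3 CPM of NR cells off drug. SPRY2 (ENSG00000136158.6, hg19 chromosome 13, 80910111 to 80915086), a feedback inhibitor of receptor signalling, stood at 17.8, 18.7 and 20 CPM in the controls and 33.3, 30.6 and 32.5 CPM in drugged NR cells (log2 0.77 ± 0.07, edgeR adjusted p = 3.1e-05). Parental cells on drug kept SPRY2 at 18, 18.8 and 17.5 CPM. ETV5, an ETS factor induced by ERK, was at 67.6, 58.2 and 71.6 CPM in the controls and 99.2, 99.1 and 94.5 CPM on drug (log2 0.57 ± 0.08, edgeR adjusted p = 0.00058), and overlapped NR cells off drug. DUSP6, the phosphatase of ERK, was low throughout, at 3.35, 3.19 and 3.38 CPM in the controls and 5.09, 5.19 and 5.03 CPM on drug (log2 0.62 ± 0.15, edgeR adjusted p = 0.016). EGR1, an immediate early factor, was called higher with a wide interval (0.41 to 1.27), at 9.04, 5.42 and 8.11 CPM in the controls and 10.9, 14.1 and 15.5 CPM on drug.

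Other ERK-driven genes matched. ETV4, another ETS factor, stood at 52.6, 60.8 and 52.4 CPM in the controls, at 19.5, 19.5 and 17.7 CPM in parental cells on drug and at 57.6, 59 and 60.8 CPM in NR cells on drug. Its interval against the controls was -0.04 to 0.24, and against NR cells off drug its log2 fold change was -0.46 (edgeR adjusted p = 0.015). MYC, the growth-promoting transcription factor, stood at 221, 244 and 236 CPM in the controls and 275, 264 and 270.5 CPM on drug and was both called higher and within the factor of 1.5 (log2 0.21 ± 0.06). LIF, a cytokine, and DUSP4, a phosphatase of nuclear ERK, were the 2 called lower. LIF stood at 29.9, 24.4 and 26 CPM in the controls and 16.7, 17.7 and 18.3 CPM on drug (log2 -0.61 ± 0.10, edgeR adjusted p = 0.0023). DUSP4 was low, at 2.51, 2.36 and 2.24 CPM in the controls and 1.07, 0.306 and 0.437 CPM on drug. Its log2 fold change, the lowest of the list, was -2.01, and -2.03 without control 2. Members with almost no counts in any OVCAR8 library, such as AREG, EREG and EGR3, were not tested.

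Of the receptors that neratinib binds, ERBB2 matched its drug-naive mRNA level in the full fit, EGFR was undecided and ERBB4 was not tested. EGFR (ENSG00000146648.11, hg19 chromosome 7, 55086714 to 55324313), the receptor of epidermal growth factor, stood at 322, 133 and 304 CPM in the parental controls and at 354, 372 and 368 CPM in NR cells on drug. Its log2 fold change was 0.53 ± 0.23 (edgeR adjusted p = 0.15) with control 2, the control at 133 CPM. Without control 2, EGFR was called higher at 0.21 (edgeR adjusted p = 0.00056) and lay within the factor of 1.5. ERBB2 (ENSG00000141736.9, hg19 chromosome 17, 37844167 to 37886679) stood at 134, 139 and 139 CPM in the controls and 123, 117 and 125 CPM on drug, with a 90% interval of -0.28 to -0.07. The ERBB2 groups did not overlap, and without control 2 it was called lower within the factor at -0.18 (edgeR adjusted p = 0.0033). ERBB3 (ENSG00000065361.10, hg19 chromosome 12, 56473641 to 56497289), the partner receptor with an impaired kinase, was lower, at 144, 132 and 162 CPM in the controls and 103, 112 and 104 CPM on drug (log2 -0.45 ± 0.08, edgeR adjusted p = 0.003). Drug raised ERBB3 in parental cells to 209.6, 203 and 205 CPM, so the drugged groups of the 2 lines lay on opposite sides of the controls. ERBB4 had at most 6 counts in any OVCAR8 library.

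Among ligands and inhibitors of these receptors, NRG1, a ligand of ERBB3, was called lower and within the factor (log2 -0.30 ± 0.07), at 43.3, 42.7 and 41.8 CPM in the controls and 33.8, 34.1 and 35.8 CPM on drug. HBEGF, a ligand of EGFR, stood at 27.2 ± 3.92 CPM in the controls and 28.6 ± 1.54 CPM on drug (SD, n = 3), where drug had taken parental cells to 14.4 ± 0.735 CPM. ERRFI1, a direct inhibitor of EGFR, was higher, at 96, 78.4 and 102 CPM in the controls and 121, 131 and 133 CPM on drug (log2 0.48 ± 0.09, edgeR adjusted p = 0.0052). LRIG1, which promotes degradation of ERBB receptors, was higher too (log2 0.56 ± 0.13, edgeR adjusted p = 0.013). EPGN, another ligand, was at 0 in all parental controls and at 0.214, 0.131 and 0.328 CPM on drug, close to the detection limit. Counting ERBB receptors, ligands and inhibitors together, 5 of 12 tested matched, 3 were higher, 2 lower and 3 undecided. Without control 2, 9 matched, 5 were higher, 3 lower and 1 undecided.

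**Figure D3:**
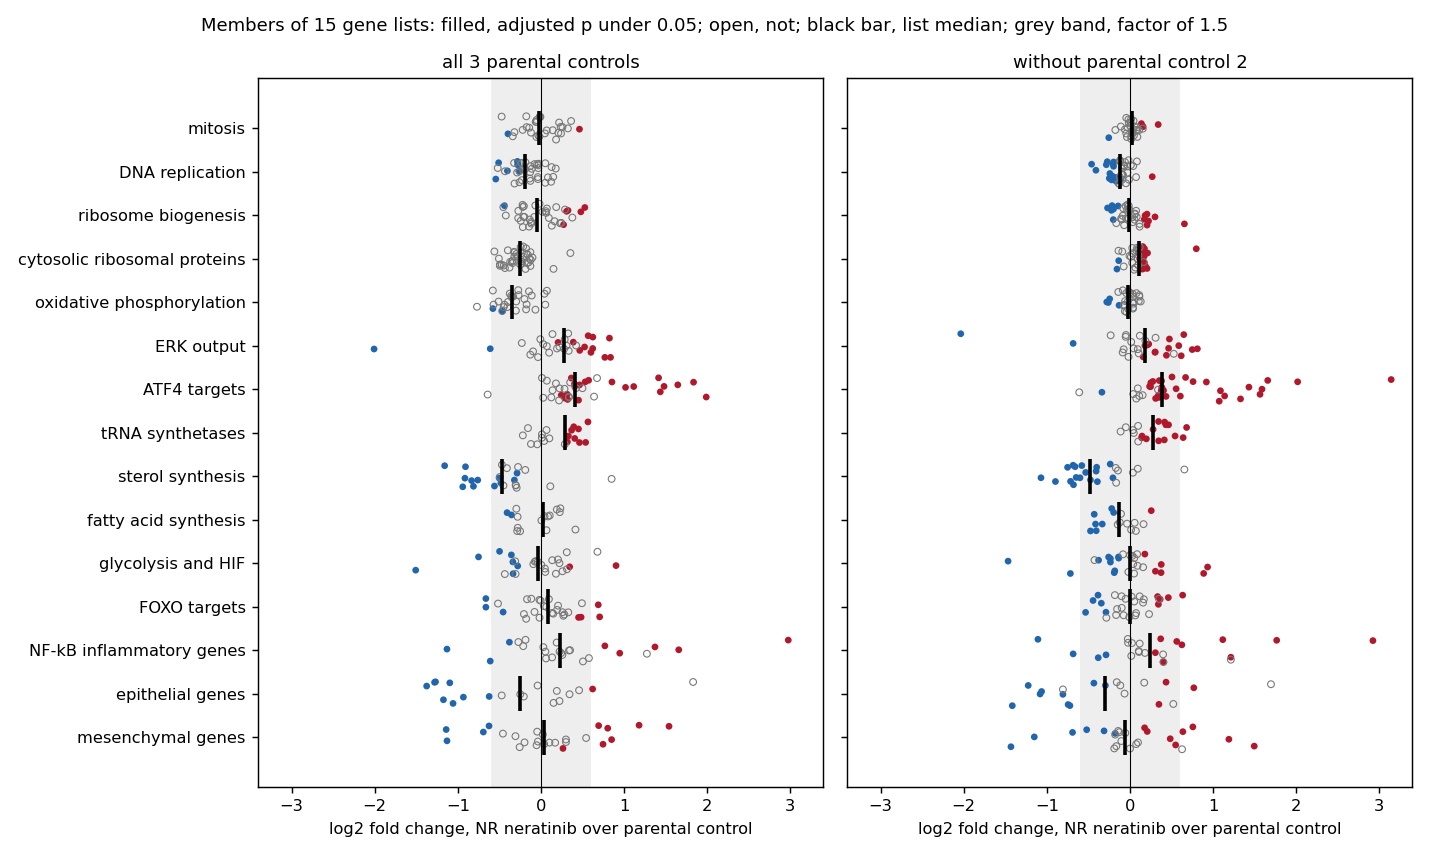
Log2 fold change of NR neratinib over parental control (horizontal axis) for every tested member of 15 gene lists (vertical axis), with all 3 parental controls on the left and without parental control 2 on the right. Red and blue points passed an edgeR adjusted p of 0.05 as higher and lower, open points did not, black bars are list medians, and the grey band is a factor of 1.5; the ribosomal protein and oxidative phosphorylation medians move toward or past 0 on the right, and the ATF4 and sterol medians keep their side.

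ATF4 targets stood above the drug-naive level in NR cells on drug. ATF4 is the transcription factor of the integrated stress response, and its targets make and import amino acids and charge tRNAs. Of 37 targets tested, 20 were higher and 17 matched, with 7 doing both and 7 undecided (median log2 0.40). Called lower were 0 with edgeR and 1 with DESeq2, and 1 member was lower at an unadjusted p under 0.05. Without control 2, 30 of 38 were higher and 1 was lower (median 0.39). Parental cells on drug showed 34 of 37 higher (median 1.56), and NR cells on drug against NR cells off drug 16 of 37 (median 0.42). The last count was 32 of 38 without control 2 in the fit. Without drug, NR cells had a median of -0.05, 3 higher and 1 lower, or 7 higher and 8 lower without control 2.

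ASNS (ENSG00000070669.12, hg19 chromosome 7, 97481430 to 97501854), asparagine synthetase, was called higher on drug in both lines. Its levels were 40.7, 65 and 44.1 CPM in the parental controls, 43.8, 42.2 and 37.1 CPM in NR cells off drug, 135, 135 and 135 CPM in NR cells on drug and 396, 407 and 394 CPM in parental cells on drug. NR cells on drug overlapped no other group, with log2 1.44 ± 0.14 against the controls (edgeR adjusted p = 4.9e-05) and 1.66 without control 2. SLC6A9, the glycine transporter GLYT1, followed the same order, at 2.22, 2.1 and 2.42 CPM in the controls, 7.63, 6.41 and 7.15 CPM in NR cells on drug and 21.8, 22.3 and 23.2 CPM in parental cells on drug (log2 1.65 ± 0.12, edgeR adjusted p = 4.8e-06). ALDH1L2, a mitochondrial folate enzyme, stood at 43.6, 23 and 47.7 CPM in the controls and 138, 144 and 128 CPM on drug (log2 1.84 ± 0.20, and 1.57 without control 2). PHGDH, the first enzyme of serine synthesis, stood at 260.1 ± 71.3 CPM in the controls and 470.4 ± 21.9 CPM on drug (SD, n = 3; log2 0.86 ± 0.14, edgeR adjusted p = 0.0022). SLC7A11, the cystine importer, was at 30.6, 14.7 and 28.8 CPM in the controls, 66.2, 69.5 and 62.4 CPM in NR cells on drug and 227, 218 and 214 CPM in parental cells on drug (log2 1.42 ± 0.20, edgeR adjusted p = 0.00069). CHAC1, which degrades glutathione, had 4.47, 9.65 and 6.33 CPM in the controls and 13.7, 13.7 and 13.8 CPM in NR cells on drug, against 67.9, 68.4 and 62.3 CPM in drugged parental cells (log2 1.02 ± 0.21, edgeR adjusted p = 0.0079).

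STC2 (ENSG00000113739.6, hg19 chromosome 5, 172741716 to 172756506), stanniocalcin 2, had another pattern. It stood at 51.8, 58.6 and 55.8 CPM in the controls and 222, 213 and 225 CPM in NR cells on drug (log2 1.99 ± 0.07, edgeR adjusted p = 1.1e-08), but NR cells off drug were already at 192, 175 and 181 CPM. DDIT3 and TRIB3, which are tied to stress-induced cell death, matched in the full fit. DDIT3, which encodes CHOP, stood at 7.03, 16.7 and 8.85 CPM in the controls, 12.1, 11.2 and 12 CPM in NR cells on drug and 46.1, 45.4 and 46.5 CPM in parental cells on drug. Its log2 fold change was 0.13 (90% interval -0.29 to 0.54) and 0.56 without control 2 (edgeR adjusted p = 4.6e-05), so the call depends on that library. TRIB3, a pseudokinase that CHOP induces, had log2 0.34 (90% interval 0.12 to 0.55) and 0.51 without control 2 (edgeR adjusted p = 1.7e-06), with 117, 119 and 110.3 CPM in drugged parental cells against 31.9, 30.3 and 33.7 CPM in drugged NR cells. ATF4 mRNA itself stood at 420.1, 744 and 464 CPM in the controls and 571, 565 and 574 CPM on drug (log2 0.07 ± 0.16, 0.35 without control 2). NUPR1, a stress-induced chromatin protein, shows how far control 2 can pull a value, with log2 0.64 in the full fit and 3.14 without that library.

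ATF4 pairs with C/EBP factors on composite elements whose letters include TGATGNAA. ASNS and CHAC1 are printed because their promoters hold this element and their levels placed NR cells on drug between the controls and drugged parental cells. The stretches are from RefSeq, GRCh38.p14, 5′ to 3′ in gene orientation, with the element in capitals. ASNS is on the minus strand at chr7:97872439-97872506 and CHAC1 on the plus strand at chr15:40953232-40953299, where the element lies on the opposite strand and is read as its reverse complement.
ASNS: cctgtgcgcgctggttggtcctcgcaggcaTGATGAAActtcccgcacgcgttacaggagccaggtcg
CHAC1: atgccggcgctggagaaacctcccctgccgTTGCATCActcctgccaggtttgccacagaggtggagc
The element was searched on both strands of the 250 bases before the start. It occurred in 4 of 30 ATF4 target promoters matched by symbol, or 13.3%, and in 3.14% of 35116 promoters. The others were those of MTHFD1L and ATF3, and both genes matched the drug-naive level in NR cells on drug. MTHFD1L was also called higher (log2 0.32, edgeR adjusted p = 0.039), and ATF3 was not called (log2 0.28, edgeR adjusted p = 0.18). A link between the element and the level was not tested.

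Aminoacyl-tRNA synthetases, most of which ATF4 also induces, were higher by small amounts. Of 19 cytosolic synthetases tested, 9 were higher and 16 lay within the factor of 1.5, with 6 doing both (median 0.29). Without control 2, 13 were higher and 16 within. Called lower were 0 with edgeR and with DESeq2, and 1 was lower at an unadjusted p under 0.05. AARS, for alanine, stood at 336, 461 and 383 CPM in the controls, 582, 579.5 and 585 CPM in NR cells on drug and 943, 936 and 960.3 CPM in parental cells on drug (log2 0.57 ± 0.10, edgeR adjusted p = 0.0023). IARS, for isoleucine, stood at 237, 222 and 241 CPM in the controls and 315, 329 and 322 CPM on drug (log2 0.46 ± 0.06, edgeR adjusted p = 0.00039). The other 10 synthetases lay within the factor and were not called, from -0.22 for FARSA to 0.29 for CARS.

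ER chaperones, which report the other branches of the unfolded protein response, gave no call in the full fit. Of 18 tested, 14 matched and 4 were undecided (median -0.12). The edgeR test called 0 members, DESeq2 called 3 lower, and 1 higher and 7 lower passed an unadjusted p under 0.05. Without control 2, edgeR called 5 lower and 0 higher, and 2 were higher at an unadjusted p under 0.05. HSP90B1, the chaperone GRP94, stood at 1138, 1689.8 and 1206 CPM in the controls and 1058, 1061 and 1051 CPM on drug, with parental cells on drug at 745, 721 and 789.7 CPM. CALR, calreticulin, stood at 1005 ± 118 CPM in the controls and 865 ± 17 CPM on drug (SD, n = 3; 90% interval -0.37 to -0.06).

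Many sterol synthesis genes stood below the drug-naive level in NR cells on drug. These genes are driven by SREBP2, which cells activate when sterol is short and when mTORC1 is active. Of 23 tested, 12 were lower, 7 matched and 6 were undecided, with a median log2 of -0.47. Called higher were 0 with edgeR and with DESeq2, and 1 member was higher at an unadjusted p under 0.05. Without control 2, 17 were lower and 10 matched, and the median was -0.47. Shares over all genes were 7.35% lower and 50% matching, or 14.6% and 62.8% without control 2. Drugged parental cells were lower in 19 of the 23 sterol genes (median -1.13). The drug lowered 8 in NR cells, or 16 without control 2 in the fit (median -0.50 in both). Without drug, NR cells had 1 member higher, 2 lower and a median of -0.13, and without control 2 they had 4 higher, 7 lower and a median of -0.05.

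INSIG1 (ENSG00000186480.8, hg19 chromosome 7, 155089486 to 155101945), which holds SREBP in the endoplasmic reticulum, stood at 35.9, 51.1 and 48.1 CPM in the controls, 43.1, 47.8 and 48.8 CPM in NR cells off drug, 19.3, 21.9 and 19.3 CPM in NR cells on drug and 9.09, 9.4 and 9.34 CPM in parental cells on drug. NR cells on drug lay between the others without overlap (log2 -1.16 ± 0.12, edgeR adjusted p = 6.5e-05). SQLE, squalene epoxidase, was at 182, 220.0 and 211 CPM in the controls and 106, 109 and 104 CPM on drug (log2 -0.94 ± 0.08, edgeR adjusted p = 1.1e-05). MVK (ENSG00000110921.7, hg19 chromosome 12, 110011060 to 110035067), mevalonate kinase, stood at 39.9, 66.9 and 42.9 CPM in the controls and 26.7, 24.8 and 27.8 CPM on drug (log2 -0.91 ± 0.16, and -0.66 without control 2, its highest control). MSMO1, a sterol C4-methyl oxidase, was at 53, 64.3 and 61.4 CPM in the controls and 34.2, 38 and 33.3 CPM on drug (log2 -0.76 ± 0.09, edgeR adjusted p = 0.00022).

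HMGCS1 (ENSG00000112972.10, hg19 chromosome 5, 43289497 to 43313614), an early enzyme of the pathway, stood apart from these genes. It stood at 50.8, 48.5 and 60.9 CPM in the controls and 59.8, 58.5 and 55 CPM in NR cells on drug, with overlapping groups and a 90% interval of -0.06 to 0.28. NR cells off drug were above both, at 93.8, 108 and 112 CPM, and parental cells on drug far below, at 16.9, 16.4 and 15.9 CPM. Drug lowered HMGCS1 in NR cells by a log2 fold change of -0.85 (edgeR adjusted p = 0.0018), from a raised level to the drug-naive one. SREBF2, the gene of SREBP2 itself, was called lower and within the factor (log2 -0.29 ± 0.08), at 238 ± 27 CPM in the controls and 195 ± 4.22 CPM on drug (SD, n = 3).

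SREBP factors bind sterol regulatory elements, for which the letters TCACNCCA were searched. MVK and MSMO1 are shown as lower genes whose promoters hold the element. The stretches are from RefSeq, GRCh38.p14, both on the plus strand, 5′ to 3′, with the element in capitals, for MVK at chr12:109573569-109573636 and for MSMO1 at chr4:165327483-165327550.
MVK: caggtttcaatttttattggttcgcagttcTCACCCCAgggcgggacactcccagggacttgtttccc
MSMO1: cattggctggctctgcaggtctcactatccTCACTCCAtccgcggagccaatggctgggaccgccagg
It occurred on either strand of the 250 bases before the start in 3 of 16 sterol gene promoters matched by symbol, or 18.8%, and in 3.2% of 35116 promoters. The third was that of SREBF2. A missing match says only that these letters are not in that window.

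**Figure D4:**
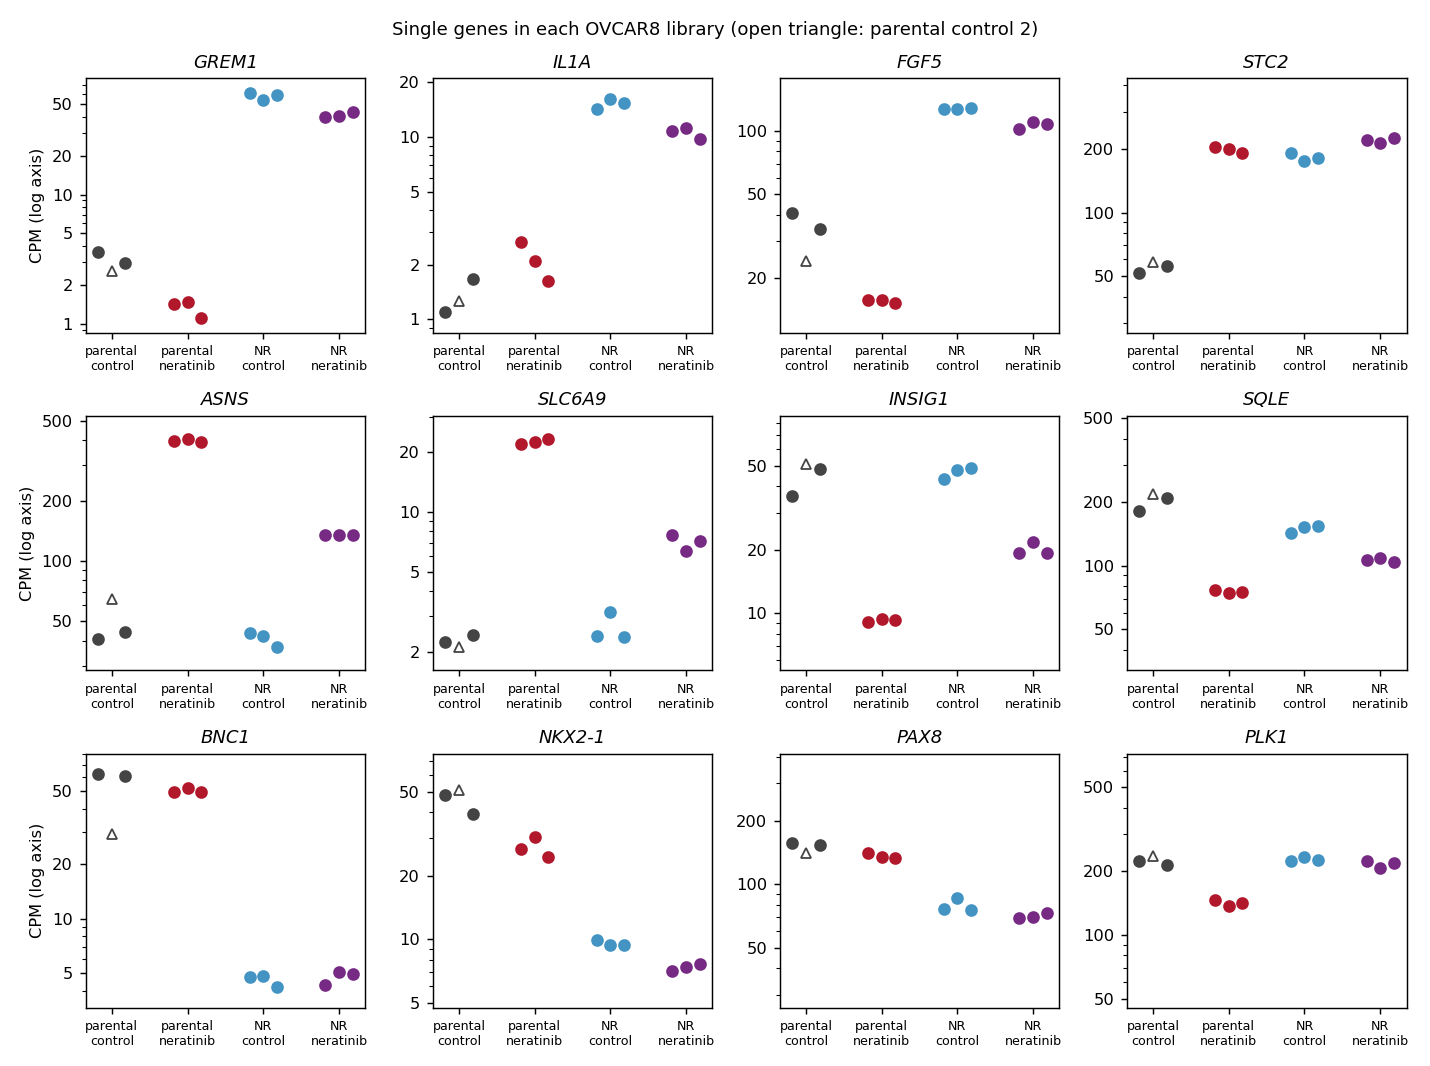
CPM on a log axis (vertical) of 12 single genes in each of the 12 OVCAR8 libraries, by group (horizontal), with parental control 2 as an open triangle. GREM1, IL1A, FGF5, BNC1, NKX2-1 and PAX8 in NR cells lie on the same side of the parental controls on and off drug, while ASNS, SLC6A9, INSIG1 and SQLE on drug lie between parental controls and drugged parental cells.

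Fatty acid synthesis genes, under SREBP1, were closer to the controls. Of 16 tested, 15 matched and 2 were lower, with 1 undecided (median 0.02). Called higher were 0 with edgeR and with DESeq2, and 1 was higher at an unadjusted p under 0.05. Without control 2, 7 were lower and 1 higher, all 16 lay within the factor, and the median was -0.13. FASN, fatty acid synthase, stood at 518, 375 and 510.0 CPM in the controls and 394, 352 and 409.7 CPM on drug, and its log2 fold change of -0.28 (edgeR adjusted p = 0.12) became -0.43 without control 2 (adjusted p = 2.7e-06). In NR cells off drug FASN stood above the controls instead, at 660.2 ± 45.1 CPM (SD, n = 3). SCD, the stearoyl-CoA desaturase, went from -0.29 to -0.47 in the same way. FADS2, a fatty acid desaturase, was called lower, at 165 ± 11 CPM in the controls and 125 ± 3.08 CPM on drug (SD, n = 3; log2 -0.41 ± 0.07).

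Glycolytic and HIF-driven genes were mixed. Of 27 tested, 20 matched, 2 were higher, 7 lower and 3 undecided (median -0.04). Without control 2, 22 matched, 6 were higher and 10 lower. Among all genes, 50% matched, 6.5% were higher and 7.35% lower, or 62.8%, 12.5% and 14.6% without control 2. In parental cells the drug lowered 18 of the 27 genes and raised 2 (median -0.40). In NR cells it lowered 12 and raised 1 (median -0.33), or lowered 23 and raised 1 without control 2 in the fit. NR cells off drug were higher than controls in 13 and lower in 1 (median 0.32). VEGFA (ENSG00000112715.16, hg19 chromosome 6, 43737921 to 43754224), an angiogenic factor, was higher, at 16.8, 19 and 17.9 CPM in the controls, 33.8, 33.7 and 33 CPM in NR cells on drug and 68.5, 69.3 and 59.1 CPM in parental cells on drug (log2 0.90 ± 0.08, edgeR adjusted p = 1.8e-05). SLC2A1, the glucose transporter GLUT1, was higher by less (log2 0.35 ± 0.08), and SLC2A3, the transporter GLUT3, was lower, at 20.9, 24.8 and 24.2 CPM in the controls and 13.4, 14.4 and 13.7 CPM on drug (log2 -0.75 ± 0.08, edgeR adjusted p = 0.0001). GAPDH stood at 4983 ± 499 CPM in the controls and 4679 ± 97.6 CPM on drug (SD, n = 3; 90% interval -0.23 to 0.05). ADM, adrenomedullin, stood at 66, 66.7 and 48.3 CPM in the controls, 78.3, 68 and 78.3 CPM in NR cells on drug, 143, 119.9 and 126 CPM in NR cells off drug and 13.9, 14.7 and 12.7 CPM in parental cells on drug. Its interval against the controls ran from 0.09 to 0.53. PGK1 and TPI1, glycolytic genes that every cell uses, had at most 0 and 2 counts in any OVCAR8 library. Low counts of a list member can therefore not be read as absence, for a reason that was not tested.

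FOXO targets, which rise when AKT is blocked, were at the drug-naive level for the most part. Of 28 tested, 19 matched, 4 were higher, 3 lower and 2 undecided (median 0.08, and 0.01 without control 2). Without that library 23 matched, 5 were higher and 5 lower. Over all genes, 50% matched, 6.5% were higher and 7.35% lower, or 62.8%, 12.5% and 14.6% without control 2. The drug raised 19 of the 28 FOXO targets in parental cells (median 0.63). CITED2, a FOXO target, stood at 96.1, 88.9 and 85.4 CPM in the controls, 146, 146 and 147 CPM in parental cells on drug and 88.4, 83.6 and 84.4 CPM in NR cells on drug (90% interval against the controls -0.20 to 0.04). KLF9, a stress-responsive factor, was higher than controls by log2 0.71 ± 0.14 (edgeR adjusted p = 0.0054). Lysosome and autophagy genes matched in 26 of 33 cases, and 31 without control 2 (medians 0.0013 and 0.05). Calls in that list went from 1 higher and 3 lower to 7 higher and 7 lower. SQSTM1, the autophagy receptor p62, stood at 185, 221 and 194 CPM in the controls, 404, 389 and 407 CPM in parental cells on drug and 224, 199 and 224 CPM in NR cells on drug. Genes of the mTORC1 machinery matched in 25 of 38 cases, with 3 higher and 2 lower, and in 34 without control 2, with 10 higher and 7 lower. RRAGD, a GTPase that recruits mTORC1 to lysosomes, was lower in NR cells on drug, at 32.2, 43.4 and 34.6 CPM in the controls and 19, 19.4 and 18.7 CPM (log2 -0.95 ± 0.10, edgeR adjusted p = 9.8e-05), and NR cells off drug were at 20.3, 19.5 and 21.6 CPM. SESN2, an inhibitor of mTORC1 under ATF4, stood at 22.5, 23 and 24.3 CPM in the controls, 31.4, 30.2 and 30.8 CPM in NR cells on drug and 80.4, 75 and 67.5 CPM in parental cells on drug (log2 0.40 ± 0.08, edgeR adjusted p = 0.0072).

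Some genes that drug moved most in parental cells lay within the factor of 1.5 of the controls in NR cells on drug. Among those that rose in parental cells, IL20RB, a cytokine receptor chain, stood at 1.53, 2.0 and 1.4 CPM in the controls, 11.5, 11.4 and 12 CPM in parental cells on drug and 1.69, 1.42 and 1.81 CPM in NR cells on drug. FKBP9, a prolyl isomerase, stood at 60, 58.3 and 62.5 CPM in the controls, 229, 231 and 227 CPM in parental cells on drug and 79.1, 84.2 and 75.9 CPM in NR cells on drug. It lay within the factor but was also called higher than the controls (log2 0.40 ± 0.07, edgeR adjusted p = 0.0028), without overlap. FKBP9 did rise with drug in NR cells (log2 0.72, edgeR adjusted p = 0.00079), from 48.6, 51.6 and 45.5 CPM. Among those that fell, TFRC, the transferrin receptor, stood at 183, 88.5 and 157 CPM in the controls, 48.6, 49.2 and 50 CPM in parental cells on drug and 133, 129 and 123 CPM in NR cells on drug. Without control 2, its lowest control, TFRC had a log2 fold change of -0.42 (edgeR adjusted p = 3.1e-06). GAL, the neuropeptide galanin, stood at 15.2, 27.2 and 14.8 CPM in the controls, 5.36, 5.23 and 5.64 CPM in parental cells on drug and 16.8, 15.1 and 17.5 CPM in NR cells on drug.

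Among the genes with the largest differences were secreted factors and cytokines. GREM1 (ENSG00000166923.6, hg19 chromosome 15, 33010175 to 33026870), a secreted antagonist of bone morphogenetic proteins, stood at 3.59, 2.58 and 2.98 CPM in the parental controls and 39.5, 40.5 and 43.5 CPM in NR cells on drug (log2 3.75 ± 0.13, edgeR adjusted p = 6.2e-09). NR cells off drug had 60.6, 54.2 and 58.6 CPM, and drugged parental cells 1.42, 1.49 and 1.12 CPM. IL1A (ENSG00000115008.5, hg19 chromosome 2, 113531492 to 113542167), the cytokine interleukin 1 alpha, stood at 1.1, 1.26 and 1.68 CPM in the controls, 10.9, 11.2 and 9.84 CPM in NR cells on drug and 14.2, 16.2 and 15.4 CPM off drug (log2 2.98 ± 0.18, edgeR adjusted p = 1.0e-06). IL1B, interleukin 1 beta, stood at 2.89, 4.16 and 3.65 CPM in the controls, 10.8, 12.1 and 10.8 CPM in NR cells on drug and 19.6, 22 and 21.7 CPM off drug (log2 1.66 ± 0.13, edgeR adjusted p = 6.7e-06). Drug lowered IL1B in NR cells by a log2 fold change of -0.91 (edgeR adjusted p = 0.0047), which left it above the controls. FGF5 (ENSG00000138675.12, hg19 chromosome 4, 81187753 to 81257834), a fibroblast growth factor, stood at 40.7, 24.2 and 34.5 CPM in the controls and 102, 110.1 and 107 CPM in NR cells on drug (log2 1.68 ± 0.14, edgeR adjusted p = 1.2e-05). Drugged parental cells lay on the other side of the controls, at 15.8, 15.9 and 15.2 CPM. AFF3, a factor of transcription elongation, and CD74, the invariant chain of MHC class II, were higher by log2 2.26 ± 0.19 and 2.07 ± 0.16. PSG7 and PSG5, pregnancy-specific glycoproteins, were higher by 4.26 and 2.04, but this family has near-identical copies and their counts are uncertain.

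Among genes far below the drug-naive level, BNC1 (ENSG00000169594.8, hg19 chromosome 15, 83924655 to 83953466), a zinc finger factor of epithelia, stood at 62.1, 29.1 and 60.9 CPM in the controls and 4.31, 5.1 and 4.99 CPM in NR cells on drug (log2 -3.4 ± 0.24, edgeR adjusted p = 3.3e-06). Off drug it was at 4.78, 4.84 and 4.21 CPM, overlapping the drugged NR libraries. GDA, guanine deaminase, stood at 27.6, 20.7 and 25.6 CPM in the controls and 2.49, 2.3 and 1.86 CPM on drug (log2 -3.48 ± 0.14, edgeR adjusted p = 3.3e-08). MISP, a protein of the mitotic spindle and cortex, stood at 62.5 ± 11.8 CPM in the controls and 8.82 ± 0.740 CPM on drug (SD, n = 3; log2 -2.82 ± 0.13). NKX2-1 (ENSG00000136352.13, hg19 chromosome 14, 36985602 to 36990354), a homeobox factor of lung and thyroid, stood at 48.1, 50.7 and 39 CPM in the controls, 7.07, 7.39 and 7.63 CPM in NR cells on drug and 26.7, 30.3 and 24.5 CPM in drugged parental cells (log2 -2.64 ± 0.11, edgeR adjusted p = 6.3e-08). SFTA1P, a transcribed pseudogene, had a log2 fold change of -2.56, which is uncertain where reads are shared with a related copy. IGFN1 was at 95.3 ± 36.2 CPM in the controls and 13.8 ± 2.46 CPM on drug (SD, n = 3), and drug had raised it in parental cells to 267 ± 20.7 CPM. APOE, apolipoprotein E, had a log2 fold change of -2.71 ± 0.34, or -2.15 without control 2, in which it stood at 24.3 CPM against 8.41 and 10.9 CPM in the other controls. VWA1, a matrix protein, had a log2 fold change of -2.63. TSSC2 and OR7E19P, both pseudogenes with related copies that may share reads, had values of -5.65 and -3.29.

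Inflammatory genes under NF-kB were called in both directions. Of 24 tested, 5 were higher, 3 lower, 12 matched and 5 were undecided (median 0.23). Without control 2, 9 were higher, 4 lower and 12 matched. Over all genes, 6.5% were higher, 7.35% lower and 50% matched, or 12.5%, 14.6% and 62.8% without control 2. BIRC3, an inhibitor of apoptosis, was higher, at 6.24, 4.32 and 6.11 CPM in the controls and 14, 15.4 and 14 CPM on drug (log2 1.37 ± 0.12, edgeR adjusted p = 2.0e-05). MMP1, a collagenase, was lower, at 24.1, 24.8 and 21.4 CPM in the controls, 12, 9.04 and 11 CPM in NR cells on drug and 22.5, 21.1 and 23.1 CPM off drug. ICAM1 and NFKBIA matched, with intervals of 0.06 to 0.43 and -0.39 to 0.02.

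Epithelial genes were lower in 8 of 19 cases and higher in 1, while 4 matched and 6 were undecided (median -0.25, and -0.29 without control 2). Without that library 9 were lower, 3 higher, 6 matched and 4 were undecided. Of all genes in the full fit, 7.35% were lower, 6.5% higher and 50% matched. Keratin 18, KRT18 (ENSG00000111057.6, hg19 chromosome 12, 53342655 to 53346685), stood at 933, 1756 and 1065 CPM in the controls and 483, 469.7 and 494 CPM in NR cells on drug (log2 -1.37 ± 0.18, edgeR adjusted p = 0.00039, and -1.06 without control 2). Its partner keratin 8, KRT8, stood at 2769.8 ± 909 CPM in the controls and 1296 ± 80.9 CPM on drug (SD, n = 3; log2 -1.10 ± 0.17, edgeR adjusted p = 0.0013). ESRP1, a splicing factor of epithelia, was the 1 called higher (log2 0.62 ± 0.16). EPCAM, an epithelial adhesion molecule, matched in the full fit (90% interval -0.09 to 0.39) and was called higher without control 2 at 0.35.

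Mesenchymal genes moved both ways, with 7 of 25 higher, 4 lower, 12 matching and 3 undecided (median 0.04). Without control 2, 8 were higher, 6 lower and 14 matched. The all-gene shares were 6.5% higher, 7.35% lower and 50% matching, or 12.5%, 14.6% and 62.8% without control 2. SNAI2, the repressor SLUG, stood at 7.51, 7.39 and 8.33 CPM in the controls and 24.5, 21.8 and 21.4 CPM in NR cells on drug (log2 1.54 ± 0.11, edgeR adjusted p = 3.3e-06). CTGF, a matricellular target of YAP, stood at 77.3, 80.4 and 76.2 CPM in the controls, 167, 179 and 185 CPM in NR cells on drug and 238, 239 and 243 CPM off drug (log2 1.181 ± 0.07, edgeR adjusted p = 7.5e-07). FN1, fibronectin, was lower, at 2219, 1046 and 2203 CPM in the controls and 787, 851 and 843 CPM on drug (log2 -1.14 ± 0.21, and -1.43 without control 2, the control at 1046 CPM). TGFBI, a matrix protein induced by TGF-beta, was lower, at 1274, 1244 and 1254 CPM in the controls and 579.6, 566 and 579 CPM on drug (log2 -1.13 ± 0.06, edgeR adjusted p = 4.3e-07). VIM, vimentin, lay within the factor in both fits, with log2 0.30, and 0.49 without control 2, where it was called higher (edgeR adjusted p = 2.5e-08).

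Markers of the ovarian line were present, 6 of 9 with more than 5 CPM, but several stood lower in NR cells. PAX8 (ENSG00000125618.12, hg19 chromosome 2, 113973574 to 114036527), the lineage factor of the Müllerian tract, stood at 157, 139.9 and 154 CPM in the controls, 141, 134 and 133 CPM in parental cells on drug, 75.9, 86.3 and 75.6 CPM in NR cells off drug and 69, 70.1 and 72.6 CPM on drug (log2 -1.09 ± 0.08, edgeR adjusted p = 2.8e-06). MSLN, mesothelin, had a log2 fold change of -0.62 ± 0.17, or -0.33 without control 2. Their part in the epithelial results was not tested. The summed level of the 9 ovarian markers was 2582 to 2880.0 CPM in drugged NR cells and 4773 to 7914 CPM in the controls. Most of this sum was KRT7, KRT8 and KRT18, at up to 751, 1343 and 494 CPM in drugged NR cells, so it is mainly a keratin level. WT1, MUC16 and CLDN6 stayed under 5 CPM in all 6 libraries. The highest control value of KRT18, 1756 CPM, was that of control 2. Urothelial markers, which would mark the other line of the series, summed to 18.3 to 20.1 CPM in drugged NR cells and 12.3 to 13.0 CPM in the controls, nearly all of it GATA3. Blood, endothelial and fibroblast markers, summed by class, each reached at most 4.61 CPM in any of the 6 libraries, and PTPRC and CD3E were at 0. HBB and PECAM1 had no matching entry, and low counts can here not be read as absence.

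Other receptor tyrosine kinases feed the same pathways. Of 24 tested, 5 were higher, 3 lower, 16 matched and 4 were undecided, where 50% of all genes matched (median 0.10, and -0.02 without control 2). Without that library 17 of 25 matched, near the 62.8% of all genes, with 6 higher and 4 lower. MET, the receptor of hepatocyte growth factor, stood at 101, 61.9 and 107 CPM in the controls and 126, 129 and 127 CPM on drug, and its log2 fold change of 0.51 (edgeR adjusted p = 0.046) was 0.29 without control 2. INSR, the insulin receptor, was higher by 0.45 ± 0.10 (edgeR adjusted p = 0.0099). AXL, the most abundant of the matching members, stood at 907, 735 and 901 CPM in the controls and 1007, 962 and 1020.3 CPM on drug. FGFR3, a fibroblast growth factor receptor, was lower, at 32, 28.2 and 33.1 CPM in the controls and 18.3, 17.1 and 19.9 CPM on drug (log2 -0.76 ± 0.10, edgeR adjusted p = 0.00038), while FGFR1 was called higher and within the factor at 0.30.

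Drug efflux transporters gave 1 higher of 12 and 6 matching, or 1 and 7 without control 2. The shares over all genes were 6.5% higher, 7.35% lower and 50% matching, or 12.5%, 14.6% and 62.8% without that library. Counts of higher and matching transporters lay near these shares. Log2 fold changes of single transporters ran from -0.57 to 1.59, and from -0.56 to 1.59 without control 2. ABCC1, which encodes the pump MRP1, stood at 158 ± 34.2 CPM in the controls and 175 ± 4.48 CPM on drug (SD, n = 3; 90% interval -0.08 to 0.36). Called lower were 0 with edgeR and with DESeq2, and 1 at an unadjusted p under 0.05. In the BCL2 family 10 of 16 matched, 2 were higher and 3 lower, and without control 2 these were 13, 3 and 4. PMAIP1, the death promoter NOXA, stood at 11.2, 12 and 13.3 CPM in the controls and 15.7, 16.1 and 15.5 CPM on drug (log2 0.37 ± 0.09, edgeR adjusted p = 0.016). BAK1, a pore former of mitochondria, stood at 67.6, 72.2 and 63.2 CPM in the controls and 52.9, 50 and 53.7 CPM on drug (log2 -0.37 ± 0.07, edgeR adjusted p = 0.0051). MCL1, an inhibitor of cell death, matched, with an interval of 0.06 to 0.31. In the antioxidant list under NRF2, 6 of 21 were higher, 1 lower and 10 matched, or 9, 2 and 15 without control 2. SLC7A11 had the largest log2 fold change among members with at least 5 CPM in a group. FTH1, the ferritin heavy chain, was the 1 lower, at 575, 855 and 519.6 CPM in the controls and 371, 319.9 and 417 CPM on drug (log2 -0.82 ± 0.17, edgeR adjusted p = 0.0097), and parental cells on drug stood at 1076, 1042 and 1043 CPM.

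Among BMP and TGF-beta factors, 4 of 20 were higher, 4 lower, 5 matched and 8 were undecided. Without control 2, 4 were higher, 7 lower and 8 matched. INHBA, which encodes an activin chain, stood at 50.4, 32.6 and 46.7 CPM in the controls and 78.1, 80.2 and 77 CPM on drug (log2 0.86 ± 0.13, edgeR adjusted p = 0.001). CHRD, the BMP antagonist chordin, was lower, at 9.27, 12 and 10.4 CPM in the controls and 4.04, 4.79 and 5.42 CPM on drug (log2 -1.14 ± 0.13, edgeR adjusted p = 0.00013). Interferon-stimulated genes gave 3 higher, 3 lower and 12 matching of 25, or 6, 7 and 18 without control 2. Among all genes tested, 6.5% were higher, 7.35% lower and 50% matched, or 12.5%, 14.6% and 62.8% without control 2. IRF7, a factor of the interferon response, stood at 12.9, 19.5 and 11.3 CPM in the controls and 8.11, 5.58 and 7.87 CPM on drug (log2 -1.01 ± 0.20, edgeR adjusted p = 0.0062).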

How the data were processed

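Poly(A) RNA-seq of 24 libraries was used here as raw gene counts deposited by the authors in 1 table. The submitters' processing notes name hg19, the aligner STAR 2.5.3a and the counter featureCounts 1.15.2, besides FastQC and, in version 1.18.1, DESeq2. Whether counting used strand is not given in the sources used here, so overlapping and antisense genes cannot be told apart. Groups came from the labels, and the table has 39786 genes.

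Low counts were removed by filterByExpr, TMM factors were computed, and the rest were fitted with edgeR 4.0.16 (quasi-likelihood, limma 3.58.1, R 4.3.3) on the 12 OVCAR8 libraries in 4 groups of 3, with no replicate block. P-values were adjusted over all genes tested. A gene matched the drug-naive level where its 90% interval lay within a factor of 1.5. The scripts were tested on simulated data. Alternatives were DESeq2 1.42.0, limma-voom, other scaling, filters, sets of libraries and margins, a gene length offset, a replicate block and each replicate left out.

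Gene lists, members and the rule for named genes were chosen with earlier results of these data known. The rule took the 10 largest differences each way that passed an adjusted p of 0.05 with and without parental control 2, had at least 10 CPM in the higher group and did not overlap. It also took up to 3 higher, 3 lower and 3 matching members of each list with at least 5 CPM in a group, the ERBB receptors, and up to 5 genes that rose and 5 that fell most with drug in parental cells among those that matched. All other genes named were chosen after their values were seen. Of 789 list entries, 771 matched the table, and the rest were not analysed here.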

Additional observations from a re-analysis of the deposited data

Results flagged for a closer look

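The response to 1 µM neratinib differed between NR and parental OVCAR8 cells in the test of the difference itself. In the edgeR fit of the 12 OVCAR8 libraries, the drug effect in NR cells minus that in parental cells was above 0 for 835 genes and below 0 for 760 genes, of 18072 tested, at an adjusted p under 0.05. Without parental control 2, the counts were 3157 and 2919 of 18537 genes.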

How the results depend on the processing

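With the 6 libraries alone, 235 genes were higher and 309 lower, and with all 24 libraries 1778 and 2181. The narrower margin left 3630 matching genes and a margin of 2 gave 14128. DESeq2 called 1582 and 1984 genes, and the gene length offset 1427 and 1798. Scaling by library size alone gave 1304 higher and 1151 lower, or 53.1% higher against 46.9%, with the median of all genes at 0.06. Leaving out 1 library at a time gave 606 to 2318 higher and 593 to 2712 lower genes. The highest counts came without parental control 2. Dropping NR neratinib replicate 1, 2 or 3 gave 660 and 699, 606 and 593, and 619 and 737.

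List medians moved as follows, and causes were not tested. With library size only they were 0.048 for mitosis, -0.057 for G1 regulators, 0.024 for ribosome biogenesis, 0.30 for NF-kB, 0.060 for lysosome and 0.093 for mesenchymal genes. With the length offset they were 0.11 for tRNA synthetases, -0.17 for fatty acid synthesis, -0.16 for G1, 0.093 for mitochondrial mRNAs, -0.075 for lysosome, -0.022 for other receptor kinases, -0.025 for mesenchymal genes, 0.028 for NRF2 and -0.23 for the ovarian lineage. Without a filter they were -0.039 for G1, 0.26 for NF-kB and -0.13 for the ovarian lineage. With a filter of 1 CPM they were 0.18 for ERBB, -0.24 for BCL2 and -0.26 for the ovarian lineage. With all 24 libraries they were -0.043 for G1 and -0.18 for the ovarian lineage.

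With 1 library left out, medians ran from 0.18 to 0.32 for ERK output, 0.19 to 0.36 for ERBB, -0.12 to -0.069 for G1, 0.19 to 0.26 for NF-kB, -0.063 to 0.046 for lysosome, -0.017 to 0.14 for other receptor kinases, -0.055 to 0.12 for mesenchymal genes, -0.27 to 0.00093 for BCL2 and -0.40 to -0.20 for the ovarian lineage. Without parental control 2 the log2 fold change changed sign for RPLP0 (0.17), RPS3 (0.12, lowest -0.41 without control 1), RPS6 (0.21, lowest -0.35 without control 1) and EIF4EBP1 (0.39).

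With the replicate number as a block, 951 genes were higher and 990 lower. Same-numbered controls and drugged NR libraries deviated with correlations of -0.076, -0.12 and -0.018, so the numbers were not taken to pair the dishes.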
